A study of Mus musculus with 6 samples.

Results

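The expression of 9 factors that set or keep the identity of hair cells and supporting cells was examined in the organ of Corti, which senses sound in the cochlea. Pou4f3, Gfi1, Atoh1, Barhl1, Lhx3, Rbm24 and Insm1 act in hair cells, and Sox2 and Prox1 in supporting cells. The members were the probe sets whose single gene symbol in the array's annotation was 1 of these 9 names. Each name had exactly 1 probe set, so that 9 of the 19938 genes measured through such probe sets were members. The 2 groups were Pjvk-/- mice, called knockout, and Pjvk+/+ mice, called wild-type, all at postnatal day 15 (P15), with C57BL/6J-129/Sv as their strain background and without any named treatment. Each genotype had 3 samples, with 1 array for each. Pjvk encodes pejvakin, a protein that hearing depends on and that the study links to peroxisomes and sound exposure. The labels do not say how Pjvk was inactivated, nor whether each sample came from 1 animal or from a pool.

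Hair cells and supporting cells arise from shared progenitors that express Sox2. Atoh1, a basic helix-loop-helix activator, starts the hair cell programme, while Notch signalling represses Atoh1 in the neighbouring cells, which become supporting cells. Pou4f3, Gfi1, Barhl1, Lhx3 and Rbm24 follow in the differentiating hair cell, and Pou4f3 and Gfi1 are needed for its survival. Insm1 acts for a short time in embryonic outer hair cells, which it keeps from turning into inner hair cells. At P15, close to the onset of hearing, the cell types are already formed.

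The values were log2 signals of an Affymetrix mouse gene array, and the difference is always the mean of the knockout arrays minus the mean of the wild-type arrays. All p-values of genes come from limma's moderated test fitted over all 19938 genes, with Benjamini-Hochberg adjustment over all of them, and an adjusted p under 0.05 made a call. The exact two-sided permutation test of 3 arrays against 3 cannot give a p below 0.1. The targeted gene itself read 4.42, 4.36 and 4.21 in knockout arrays and 4.75, 5.06 and 4.96 in wild-type arrays, a difference of -0.59 (SE 0.09, adjusted p = 0.105). It thus lay lower in every knockout array than in any wild-type array without being called, at a dim signal. The marker genes of the tissue were measured: Ocm, a calcium buffer of outer hair cells, averaged 9.94 ± 0.13 and 9.73 ± 0.03 (SD, n = 3 each) in knockout and wild-type arrays, and Gjb2, a connexin of supporting cells, 11.02 ± 0.10 and 11.06 ± 0.08. The other hair cell markers chosen for the tissue went both ways. Tmc1 (difference 0.22), Espn (0.11) and Otof (0.03) were higher, and Slc26a5 (-0.12), Slc17a8 (-0.05), Myo7a (-0.04) and Myo6 (-0.03) lower. Of the other supporting cell markers chosen, Tectb (0.45), Otoa (0.21), Slc1a3 (0.08) and Glul (0.01) were higher and Gjb6 (-0.01) lower. The mean of 3 Y-linked genes did not overlap between the genotypes, at 7.39 to 7.58 in knockout and 7.65 to 8.05 in wild-type arrays. The sex make-up of the samples and the genotype therefore cannot be told apart.

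None of the 9 fate factors was called as changed in the knockout organ of Corti. Across all genes 7 were called, which is 0.0351% of those tested. At an unadjusted p under 0.05 there was 1 member of 9, Prox1, against 12.4% of all genes (5.74% higher and 6.66% lower), a share near the background. The groups did not overlap for 2 of the 9 members, Pou4f3 on the higher side and Prox1 on the lower side, against 17.8% of all genes (6.59% higher and 11.3% lower). The differences of the members lay between -0.21 for Prox1 and 0.18 for Lhx3 on the log2 scale, with 7 higher and 2 lower in the knockout and a median of 0.12, beside a median of -0.01 over all genes, of which 46.1% were higher and 53.9% lower. In whole tissue, fewer cells of a type and less RNA per cell cannot be told apart.

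**Figure D1:**
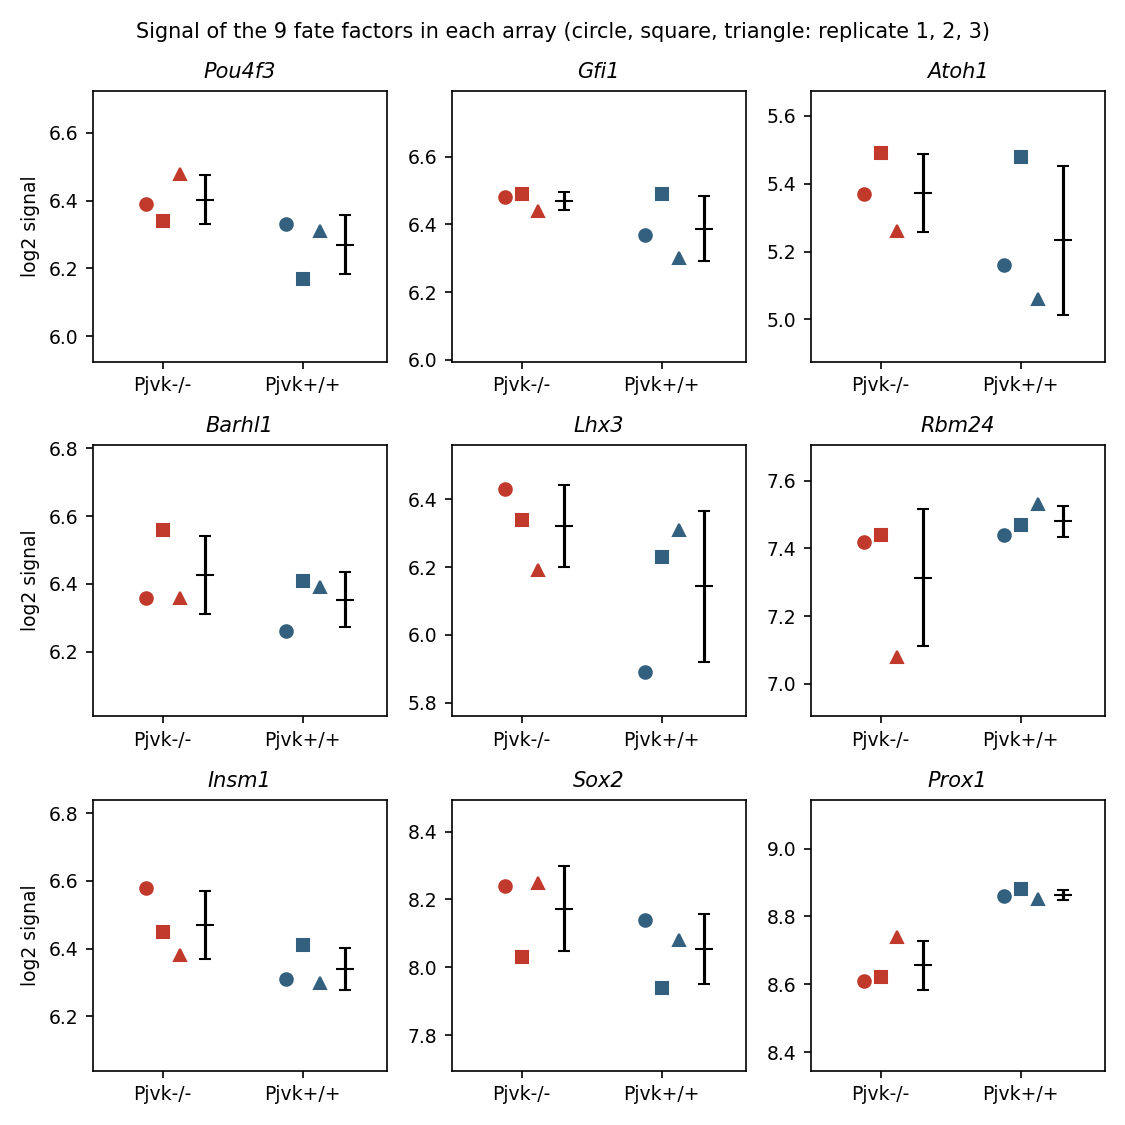
Log2 signal (vertical axis, spanning 0.8 in every panel) of each fate factor in the 3 Pjvk-/- and the 3 Pjvk+/+ arrays, with the mean and SD of each genotype in black. The genotypes overlap except for Pou4f3, where all knockout arrays lie above all wild-type arrays, and Prox1, where all lie below.

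The differences have to be read beside the level of each gene, because the direction of the difference followed signal strength across the whole array. Among genes in the fourth decile of mean signal, where Pou4f3, Gfi1, Barhl1, Lhx3 and Insm1 lay, 68.2% were higher in the knockout, with a median difference of 0.05. In the second decile, that of Atoh1, 70% were higher, and the median was likewise 0.05. Brighter genes leaned the other way, with a median of -0.03 in the sixth decile (Rbm24), -0.06 in the eighth (Sox2) and -0.05 in the ninth (Prox1). Higher values of the 6 dim hair cell factors thus went in the direction of most genes of like signal. Cyclic loess, a normalization that removes trends with signal, left the same 7 members higher and the same 2 lower, with 0.04 for Barhl1 and 0.16 for Sox2 at the ends of the higher side.

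**Figure D2:**
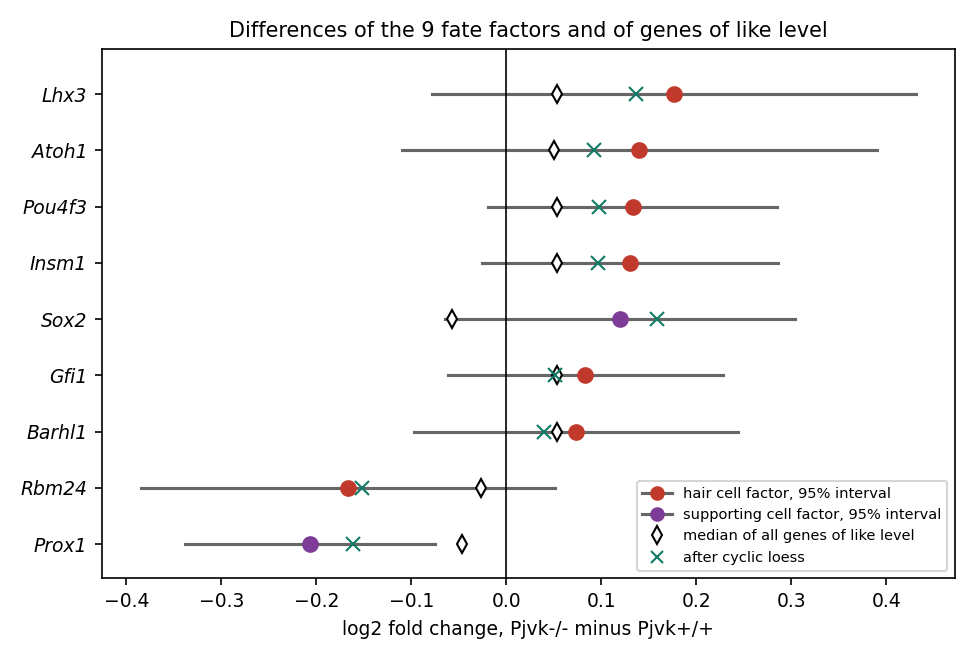
Log2 fold change of each fate factor, knockout minus wild-type (circles, with the 95% interval of limma as a line), beside the median of all genes in the same decile of mean signal (open diamonds) and the value after cyclic loess (crosses). The interval of Prox1 lies below 0, and those of the other 8 members include 0.

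Promoter sequence is shown for 3 members, to let the letters that factors of this network can bind be seen next to the genes that carry them. RefSeq promoters on GRCm38.p6 were found for 7 of the 9 members (Gfi1, Atoh1, Barhl1, Lhx3, Rbm24, Sox2 and Prox1), in 11 windows because some genes have several start sites. In the 250 bases before each start, both strands were searched for the E-boxes CAGCTG and CAGATG, letters of the kind that Atoh1 binds, and for ACAAAG, the core that SOX proteins bind. None of these matches overlaps another. Barhl1, a homeodomain factor of hair cells, is shown for CAGCTG 99 bases before its start (chr2:28916669-28916918, minus strand). Sox2 is shown for ACAAAG 206 bases before its start (chr3:34649745-34649994, plus strand), and Prox1, the member with the largest difference, for CAGATG 179 bases before its start (chr1:190170828-190171077, minus strand). The matches are in capitals and each sequence runs 5′ to 3′ on the strand of the gene.
Barhl1: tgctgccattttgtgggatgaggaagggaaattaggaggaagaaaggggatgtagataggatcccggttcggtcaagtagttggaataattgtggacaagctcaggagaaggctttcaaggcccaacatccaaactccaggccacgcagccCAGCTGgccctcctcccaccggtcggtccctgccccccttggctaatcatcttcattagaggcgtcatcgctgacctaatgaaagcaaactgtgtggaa
Sox2: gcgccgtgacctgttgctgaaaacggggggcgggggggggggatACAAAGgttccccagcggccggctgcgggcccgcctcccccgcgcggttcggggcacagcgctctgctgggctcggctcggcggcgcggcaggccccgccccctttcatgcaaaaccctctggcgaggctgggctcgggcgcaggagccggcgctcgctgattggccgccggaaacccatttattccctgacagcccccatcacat
Prox1: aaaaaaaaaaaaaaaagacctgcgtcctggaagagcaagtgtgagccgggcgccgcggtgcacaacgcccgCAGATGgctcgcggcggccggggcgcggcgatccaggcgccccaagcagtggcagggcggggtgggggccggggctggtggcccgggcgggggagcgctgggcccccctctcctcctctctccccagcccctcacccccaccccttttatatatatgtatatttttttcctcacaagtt
Barhl1 held CAGCTG before its other start as well, at 15 bases, Lhx3 held CAGATG on the opposite strand at 215 bases, and Prox1 held ACAAAG on the opposite strand at 174 bases before its other start. Thus 4 of the 11 windows, of 3 members, had an E-box and 2 windows had the SOX core, while Gfi1, Atoh1 and Rbm24 had none of the 3 motifs. Among all 32851 promoter windows of this length, from which no chromosome was left out, 25.5% held either E-box and 16.5% held the SOX core. A match describes letters in a window and shows no binding.

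Atoh1, the activator that starts hair cell fate and is largely switched off once hair cells mature, had a dim signal, in the second decile of the array. It read 5.37, 5.49 and 5.26 in knockout arrays and 5.16, 5.48 and 5.06 in wild-type arrays. The groups overlapped, since replicate 2 of the wild-type lay above all knockout arrays but replicate 2. The difference was 0.14 (SE 0.11, adjusted p = 0.606, exact permutation p = 0.4). It was 0.26 without wild-type replicate 2 and 0.05 without wild-type replicate 3, so that single arrays set its size.

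Pou4f3, a POU homeodomain factor that hair cells need to survive and whose mutations cause deafness in humans, was the hair cell factor whose arrays were separated. Its probe set, on chromosome 18, read 6.39, 6.34 and 6.48 in knockout arrays and 6.33, 6.17 and 6.31 in wild-type arrays. The lowest knockout value, 6.34, lay barely above the highest wild-type value, 6.33. The difference was 0.13 (SE 0.07, 95% interval -0.02 to 0.29, adjusted p = 0.442), or 1.10-fold, and 77.1% of the genes in its signal decile had a smaller log2 fold change. The exact permutation p was 0.1, the smallest possible here, and the difference was 0.08 without wild-type replicate 2.

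Gfi1, a zinc finger repressor that keeps neuronal genes off in hair cells, lies downstream of Pou4f3 and did not follow its separation. Its values were 6.48, 6.49 and 6.44 in knockout arrays and 6.37, 6.49 and 6.30 in wild-type arrays. Replicate 2 of the wild-type equalled the highest knockout array, and the difference was 0.08 (SE 0.06, adjusted p = 0.597, exact permutation p = 0.4). It was 0.135 without wild-type replicate 2 and 0.04 without wild-type replicate 3. Gfi1 is a repressor of blood cells too, and 12 of 14 measured blood cell genes were higher in the knockout, with a mean level of 5.61 to 5.77 in knockout and 5.57 to 5.60 in wild-type arrays. These genes were mostly dim, with a median at percentile 23.8 of signal, and in the third decile 72.7% of all genes were higher. None of these blood genes passed at an unadjusted p under 0.05, and S100a8, a neutrophil protein, had the smallest p at a difference of 0.23 (SE 0.10). The part of blood cells in the Gfi1 signal was not tested.

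Lhx3, a LIM homeodomain factor of hair cells and motor neurons, had the largest positive difference and also a large spread. It read 6.43, 6.34 and 6.19 in knockout arrays and 5.89, 6.23 and 6.31 in wild-type arrays. Replicate 1 of the wild-type stood below the other 5 arrays, which overlapped. The difference was 0.18 (SE 0.11, adjusted p = 0.530, exact permutation p = 0.4), and 0.05 without wild-type replicate 1. Lhx3 turned to -0.043 when the Y-linked level was a covariate.

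Barhl1, needed for long-term survival of hair cells, showed the smallest difference of the 9. It read 6.36, 6.56 and 6.36 in knockout arrays and 6.26, 6.41 and 6.39 in wild-type arrays. Its groups overlapped, with replicate 2 the highest array in either genotype. The difference was 0.07 (SE 0.07, adjusted p = 0.698, exact permutation p = 0.6), close to the 0.05 of all genes in its decile. It was 0.0067 without knockout replicate 2 and -0.0066 with the Y-linked covariate.

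Insm1, a zinc finger repressor with a part in outer hair cells and in neurons, read 6.58, 6.45 and 6.38 in knockout arrays and 6.31, 6.41 and 6.30 in wild-type arrays. The groups overlapped through knockout replicate 3, which lay below wild-type replicate 2. The difference was 0.13 (SE 0.07, 95% interval -0.03 to 0.29, adjusted p = 0.460, exact permutation p = 0.2), and 0.075 without knockout replicate 1. Neuron genes did not move to 1 side with it, with 5 of 12 higher and 7 lower, and their mean level was 9.27 to 9.48 in knockout arrays and 9.33 to 9.36 in wild-type arrays. Insm1, Barhl1 and Lhx3 lie on chromosome 2, the chromosome of Pjvk, at 748, 331 and 387 protein-coding genes from it in gene order.

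Rbm24, an RNA-binding protein that controls splicing in hair cells and in muscle, was the only hair cell factor of the 7 with a lower mean in the knockout, and 1 array made most of the difference. It read 7.42, 7.44 and 7.08 in knockout arrays and 7.44, 7.47 and 7.53 in wild-type arrays. Replicate 3 of the knockout lay apart from the other 5 arrays, which were between 7.42 and 7.53. The difference was -0.17 (SE 0.10, adjusted p = 0.494, exact permutation p = 0.2), and -0.05 without knockout replicate 3. Skeletal muscle genes lay the other way, with 17 of 20 higher in the knockout and a median difference of 0.20, and with a mean level of 6.31 to 6.44 in knockout and 6.21 to 6.32 in wild-type arrays. In the fourth decile of signal, where the median of the list lay, 68.2% of all genes were higher. At an unadjusted p under 0.05, 11 muscle genes were higher and 2 lower, against 13.3% and 3.66% of genes in that decile. The median of the list was 0.13 without knockout replicate 2 and 0.18 after quantile normalization. After cyclic loess it was 0.17, beside 0.02 in that decile. The cause of this lean was not tested. The mean level of the muscle genes in knockout replicate 3 was 6.32, and the part of muscle in the Rbm24 signal was not tested. Of that list, Ttn, the giant sarcomere protein, fell (difference -0.95, adjusted p = 0.00206), and Neb, nebulin, stood at -0.47 (adjusted p = 0.0534), while Tnnc2, fast troponin C, and Myh4, a fast myosin heavy chain, stood at 0.39 and 0.35. Ttn, Neb and Tnnc2 lie on the chromosome of Pjvk, and their distance from it in gene order was not counted. A part of the region around Pjvk in the Ttn difference was not tested. The call of Ttn was lost when the Y-linked level was a covariate. With that covariate 0 of all genes were called in limma, and 5.45% were at an unadjusted p under 0.05.

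**Figure D3:**
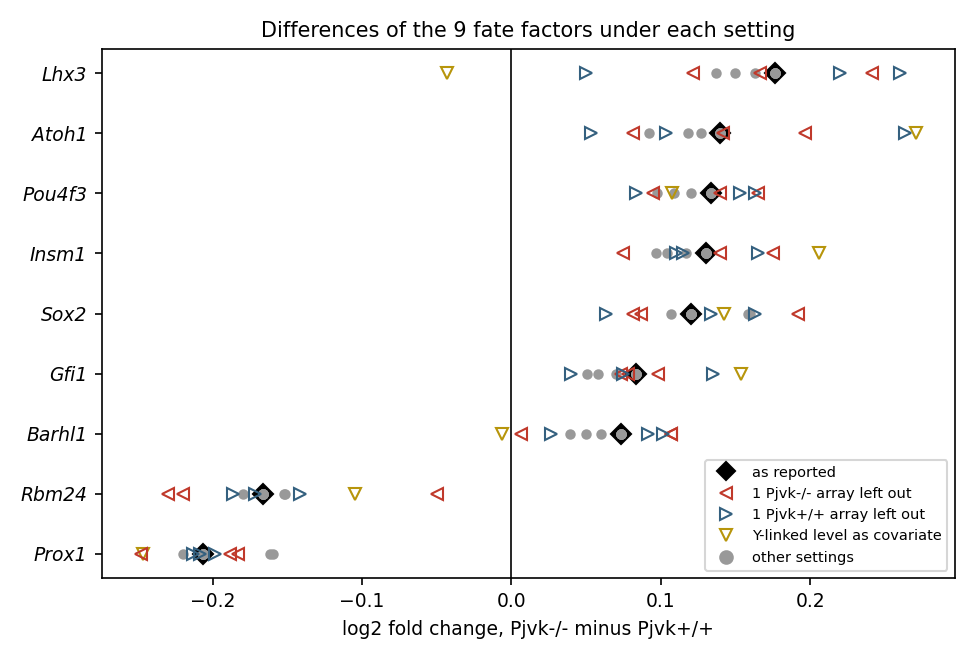
Log2 fold change of each fate factor, knockout minus wild-type, as reported (black diamonds), with 1 array left out (open triangles), with Y-linked level as covariate (downward triangles) and under the other settings (grey). Rbm24 comes to -0.05 without knockout replicate 3 and Lhx3 to 0.05 without wild-type replicate 1, whereas Prox1 stays between -0.25 and -0.16.

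The 2 supporting cell factors pointed in opposite directions. Sox2, an HMG-box factor that marks progenitors and is kept in supporting cells, read 8.24, 8.03 and 8.25 in knockout arrays and 8.14, 7.94 and 8.08 in wild-type arrays. The groups overlapped through replicate 2, the lowest array in either genotype. The difference was 0.12 (SE 0.08, 95% interval -0.06 to 0.30, adjusted p = 0.553, exact permutation p = 0.3). It was 0.19 without knockout replicate 2 and 0.06 without wild-type replicate 2. Genes of like signal mostly had lower values in the knockout, and 97.2% of the genes in its decile had a smaller log2 fold change than Sox2. Sox2 is expressed in glia too, where 5 of 8 measured genes were higher and 3 lower, with mean levels of 10.13 to 10.25 in knockout and 10.125 to 10.18 in wild-type arrays. The part of glia in the Sox2 signal was not tested.

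Prox1, a homeodomain factor of Deiters' and pillar cells, was lower in each knockout array than in any wild-type array. It read 8.61, 8.62 and 8.74 in knockout arrays and 8.86, 8.88 and 8.85 in wild-type arrays. The knockout arrays spread more (SD 0.07) than the wild-type arrays (SD 0.02). The difference was -0.21 (SE 0.06, 95% interval -0.34 to -0.07), or 1.15-fold lower, with an unadjusted p of 0.0065, an adjusted p of 0.273 and an exact permutation p of 0.1. In its signal decile 2.61% of genes had a smaller log2 fold change, and 20.7% of genes there had non-overlapping groups on the lower side. The difference stayed between -0.25 and -0.16 under all 16 alternatives tried, without being called in any. Prox1 also sets the fate of lymphatic endothelium and is expressed in neurons. Of the lymphatic genes, 3 of 6 were higher and 3 lower, with mean levels of 6.94 to 7.05 in knockout and 6.95 to 6.97 in wild-type arrays, and the neuron levels are given above with Insm1. In neither list did a gene pass at an unadjusted p under 0.05. The part of lymphatic endothelium and of neurons in the Prox1 signal was not tested.

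Among themselves the members shared no single order of the arrays. The mean of the 7 hair cell factors, as a deviation from the mean of the 6 arrays, was 0.08, 0.09 and -0.04 in knockout arrays and -0.10, 0.02 and -0.04 in wild-type arrays, and the groups overlapped. Replicate 2 gave the highest array of its genotype for Gfi1, Atoh1 and Barhl1 in both genotypes, and the lowest for Pou4f3 and Sox2. Relative to the genotype mean, Atoh1 stood at 0.12 and 0.25 and Sox2 at -0.14 and -0.11 in replicate 2 of the knockout and of the wild-type. The labels do not say that equal replicate numbers share a litter, a day or a batch.

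Genes around these factors in the same network were compared next. Of 21 other factors of the lineage 19 had a probe set with a single symbol, 8 higher and 11 lower in the knockout, with a median difference of -0.02. None was called, and 1 passed at an unadjusted p under 0.05, against 12.4% of all genes. That gene was Hes6, a helix-loop-helix factor switched on by Atoh1, which averaged 6.97 ± 0.04 in knockout arrays and 6.82 ± 0.06 in wild-type arrays (SD, n = 3 each; limma difference 0.15, SE 0.06, adjusted p = 0.358). All its knockout arrays lay above the wild-type arrays, as did those of Pax2, an early otic factor (difference 0.12, adjusted p = 0.431). Among all genes 6.59% were separated on that side. Neurog1, which specifies the neurons of the ganglion, differed by 0.13 (adjusted p = 0.457) and Tbx2, which sets inner against outer hair cells, by -0.13 (adjusted p = 0.502), with overlapping groups.

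Notch and progenitor genes, which hold supporting cells in their fate, were likewise not called. Of 20 measured genes 12 were higher and 8 lower, with a median of 0.04 and with 1 in each direction at an unadjusted p under 0.05. Among all genes 5.74% were higher and 6.66% lower at that p. Jag1, the Notch ligand that supporting cells keep making, read 8.02, 7.96 and 7.95 in knockout arrays and 8.20, 8.12 and 8.15 in wild-type arrays (difference -0.18, SE 0.05, adjusted p = 0.292). It lay lower in each knockout array than in any wild-type array, as did Prox1 and 16.6% of genes in its signal decile, the seventh. Jag1 is located on the chromosome of Pjvk. Fgf20, a growth factor of the prosensory domain, differed by 0.19 (SE 0.06, adjusted p = 0.324), with all knockout arrays higher. Sox21 and Prdm16, transcription regulators of the sensory epithelium, differed by 0.10 (adjusted p = 0.459) and 0.13 (adjusted p = 0.458).

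The effector genes that mark the cells gave no call either. Of 23 measured hair cell genes 13 were higher and 10 lower (median 0.03), with 5 higher and 2 lower at an unadjusted p under 0.05, against 5.74% higher and 6.66% lower among all genes. The median was -0.03 over the members at or above the median signal of the array. Their mean deviation was 0.05, 0.01 and 0.01 in knockout arrays and -0.03, 0.0028 and -0.04 in wild-type arrays. Lmo7, an actin-associated protein of the cuticular plate, differed by -0.48 (adjusted p = 0.139), Ptprq, a stereocilia phosphatase, by 0.39 (adjusted p = 0.276), Xirp2, an actin-binding protein of stereocilia and muscle, by 0.25 (adjusted p = 0.209) and Tmc1, of the transduction channel, by 0.22 (adjusted p = 0.273). Xirp2 lies on the chromosome of Pjvk. Of 16 supporting cell genes 10 were higher and 6 lower (median 0.06), with 3 higher and 1 lower at that p. These genes were mostly bright, with a median at percentile 84.6 of signal. In the ninth decile 22.8% of all genes were higher, and at that p 1.05% were higher and 9.93% lower. The median of the list was 0.10 after quantile normalization and also after cyclic loess. The cause of this lean was not tested. Tectb, a tectorial membrane protein, had an adjusted p of 0.0923 at 0.45. Otog and Otoa, proteins of the extracellular membranes, each stood at 0.21, and S100a1, a calcium-binding protein of supporting cells, at -0.16. The mean deviation of the supporting cell genes was 0.09, -0.0033 and 0.02 in knockout arrays and -0.05, -0.04 and -0.01 in wild-type arrays.

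**Figure D4:**
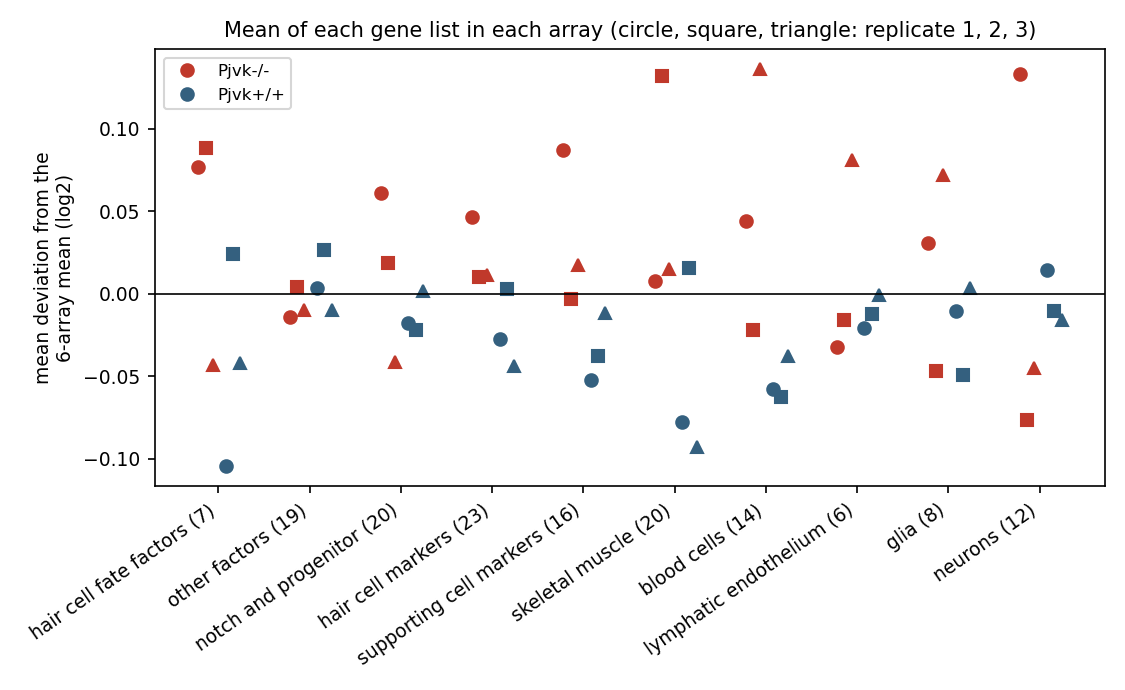
Mean deviation from the 6-array mean (log2, vertical axis) of each gene list in the 3 Pjvk-/- arrays (red) and the 3 Pjvk+/+ arrays (blue), with the number of measured genes in brackets. The 7 hair cell fate factors overlap between the genotypes, between -0.04 and 0.09 in knockout arrays and between -0.10 and 0.02 in wild-type arrays. The means of the hair cell markers, supporting cell markers and blood cells lie higher in every knockout array than in any wild-type array. Those of the remaining lists overlap. These means carry no test.

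The genes whose profile over the 6 arrays was nearest to that of a member were sought among the 141 other listed genes with a probe set. The measure was the root mean square difference of the log2 profiles after centring each on its own mean. For Prox1 the nearest were Lhfpl5, a partner of the hair cell transduction channel, at 0.04, and Lgr5, a receptor of supporting cells, and Snap25, a synaptic vesicle fusion protein of neurons, at 0.06 each. For Pou4f3 they were Espn, an actin bundler of stereocilia, at 0.05, and Xirp2 at 0.06 and Prdm16 at 0.07. For Insm1 they were Fgfr3, a receptor of supporting cells, and Pax2 at 0.05 each, and Tcf4, a partner of helix-loop-helix factors, at 0.06. Lhfpl5 read 6.98, 7.08 and 7.14 in knockout arrays and 7.22, 7.27 and 7.32 in wild-type arrays, a difference of -0.20 beside the -0.21 of Prox1. This likeness rests on 6 arrays that share the genotype contrast, and it carries no test.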

How the data were processed

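Total RNA of the organ of Corti from 3 Pjvk-/- and 3 Pjvk+/+ samples was hybridised to Affymetrix mouse gene arrays from 100 ng of RNA, per the labels' protocols. The deposited values were log2 signals, 35557 probe sets for each array. Per the submitters' processing notes the Affymetrix Expression Console was used; no label or header used here names the summarization, normalization or genome build. Array medians ran from 6.66 to 6.69, and no further normalization was applied to the reported values. Like medians leave the trend with signal described above in place. Cyclic loess took Prox1 from -0.21 to -0.16 and Sox2 from 0.12 to 0.16. The number of arrays limits the precision, and since no label says that samples came from separate animals, p-values cover only the spread among these samples, possibly technical. No 2 arrays held identical values.

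The platform annotation gave 21789 probe sets a single symbol; symbols were updated through gene identifiers to GRCm38.p6 (21698 matched). The brightest probe set of a gene was kept. limma 3.58.1 in R 4.3.3 compared the genotypes (lmFit, eBayes). On simulated data of 19938 genes for this comparison, it recovered 96 of 100 genes changed by 1 and 67 of 100 changed by 0.5 on the log2 scale. Of 173 calls there, 10 were false. The simulated noise was independent and normal, without the trend with signal. Changes as small as those of the members, at most 0.21 in size, were not simulated.

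The members and lists were chosen with earlier results of these data known. Named were Pjvk, all members, up to 4 genes of each list by smallest unadjusted p, and the 3 nearest profiles of the 3 members with the smallest p. Other genes named are markers of the tissue. Lists were described by counts and medians. Of 4 Y-linked genes 3 had a probe set with a single symbol. The alternatives were filters on dim genes, 3 normalizations, 2 ways of treating several probe sets, an intensity trend, a replicate block, a Y-linked covariate and leaving out each array.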

Additional observations from a re-analysis of the deposited data

How the results depend on the processing

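No member was called in limma under any of the alternatives, and Prox1 was at an unadjusted p under 0.05 in each of them, with an adjusted p between 0.0942 (intensity trend and robust priors) and 0.910 (Y-linked covariate). The number of members at that p ran from 1 to 2 with 1 array left out, with Sox2 added without knockout replicate 2, Insm1 without knockout replicate 3 and Atoh1 without wild-type replicate 2. With Y-linked level as covariate, Barhl1 was at -0.0066 and Lhx3 at -0.043, and no other member changed direction under any alternative in which it was tested. The filter at the 25th percentile left 8 members and that at the median 3. Genes called among all genes numbered 20 and 45 with these filters, 18 with median centring, 112 with the intensity trend, 1 with the replicate block, 0 with the Y-linked covariate (where 5.45% were at an unadjusted p under 0.05), and 2 (without wild-type replicate 1 or 2) to 6 with 1 array left out, with 3 without knockout replicate 3. The share at that p was then 8.26% (without knockout replicate 3) to 15.7%. Pjvk, at -0.59, was called with the intensity trend (adjusted p = 0.0207). The deviations of same-numbered arrays correlated at 0.08, 0.02 and -0.0094, and those of arrays with different numbers at -0.11 to 0.09. Such weak correlations cannot decide whether equal replicate numbers share a litter or a batch. With the replicate block Prox1 had an adjusted p of 0.375. The cause of these changes was not tested. The median over all genes moved by less than 0.04 under any alternative.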

Other observations

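The opposite directions of Sox2 and Prox1 were set against each other within each array, a comparison chosen after their values were seen. Sox2 minus Prox1 came to -0.37, -0.59 and -0.49 in knockout arrays, against -0.72, -0.94 and -0.77 in wild-type arrays, on the log2 scale. The mean was -0.48 ± 0.11 in knockout and -0.81 ± 0.12 in wild-type arrays (SD, n = 3 each), a difference of 0.33 with no overlap between the genotypes. Prox1 alone already separates the genotypes, so these values describe the pattern that led to the comparison and carry no test.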
